A study of Rattus norvegicus with 12 samples.

Results

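Chemokines are small secreted proteins that guide white blood cells, and their receptors are proteins of the cell surface through which those cells sense the gradient. All genes of the rat chemokine and chemokine receptor families that the array measured were followed here in the renal cortex after cisplatin, an anticancer platinum compound that is toxic to the kidney tubule. Members were taken by symbol, as probes outside the controls whose accession belongs to a rat gene named as a CC, CXC, CX3C or XC ligand, a receptor of one of these classes or an atypical receptor. They came to 53 of 15645 named genes on the array, 33 ligands and 20 receptors, with 90 of 61537 probes. The RefSeq table holds 57 such symbols. Ackr1, Ackr4, Ccr8 and Cxcl3 had no matching probe.

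The rats were male Sprague-Dawley animals bought at 5 weeks of age, and total RNA of the cortex was labelled with Cy3 and hybridised to 12 one-colour Agilent arrays, 1 per animal. The 4 groups of 3 animals were cisplatin by gavage at 3.75 mg/kg/day, water by gavage, cisplatin by intravenous injection at 0.75 mg/kg/day and water by intravenous injection, each for 4 weeks. Route, dose and experiment therefore changed together, and whole cortex holds tubules, vessels and white blood cells at once. The intravenous cisplatin arrays had a slide to themselves, so that intravenous cisplatin and its slide cannot be told apart. The 12 proximal tubule genes listed for the check of the tissue were all well above background on all arrays. Their summed signal was 157 to 346 in gavage cisplatin and 2703 to 3022 in gavage water, and 274 to 974 in intravenous cisplatin and 2583 to 2936 in intravenous water, in units of each array's 75th percentile. In such bulk samples, fewer cells of a type and less RNA per cell cannot be told apart.

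Inflammatory chemokines are made on demand by injured epithelium, vessel walls and resident macrophages, often under the transcription factors NF-kappa B, AP-1 and the interferon-activated factors. Homeostatic chemokines are made without injury and place lymphocytes in their tissues. In the kidney, Ccl2 and the neutrophil attractants of the Cxcl1 group are known for their rise in tubular injury, and Cx3cl1 and Cxcl16 for sitting on the membranes of epithelium and endothelium.

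Signals are given as log2 of the processed intensity over the 75th percentile of the array, so that 0 is the 75th percentile itself. A change is the difference of 2 group means on this scale with its standard error (SE), and a call is an adjusted p under 0.05 in limma after Benjamini-Hochberg adjustment over 32215 features. To be tested, a gene needed 1 group whose 3 arrays all showed its probe well above background. Of the 53 members, 43 were tested, 30 ligands and 13 receptors, and 39 of these were well above background on all 12 arrays. The filter was passed through a water group by 41 members, and by Cxcl2 and Ccl1 through cisplatin groups alone.

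Cisplatin moved the chemokine genes in both directions in both experiments. In the gavage experiment 14 of 43 members rose (32.6%, against 29.5% of all features tested) and 8 fell (18.6%, against 30.2%), which makes 22 called (51.2%, against 59.6%), and 21 did not pass. The rises were 11 ligands and 3 receptors, and the falls 7 ligands and 1 receptor. In the intravenous experiment 17 members rose (39.5%, against 26.1% of all features) and 9 fell (20.9%, against 32.6%), 26 called in all (60.5%, against 58.7%), with 15 ligands and 2 receptors among the rises and 6 ligands and 3 receptors among the falls. The shares called lay near those of all features. The rises include Cxcl2 in both experiments and Ccl1 in intravenous animals, which passed the filter through cisplatin groups alone. With a filter on all 12 arrays, 13 members rose in gavage and 14 in intravenous animals. The median change of the 43 members was 0.12 in gavage and 0.60 in intravenous animals, and that of all features was 0.0013 and -0.074. For the ligands alone it was 0.34 and 0.85, and for the receptors 0.074 and 0.28.

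In both experiments 12 members rose and 6 fell, which makes 18 of 43 called in the same direction (41.9%, against 45.9% of all features tested). A total of 0 were called in opposite directions and 13 in neither. The 3 cisplatin arrays did not overlap the 3 water arrays for 23 members in gavage (67.2% of all features did so) and for 28 members in intravenous animals (66.2%). The difference between the 2 effects was called by limma for 0 of 43 members, against 1.19% of all features (0.161% higher and 1.02% lower), with 9 at an unadjusted p under 0.05. The plot of changes in both experiments shows that most members lay on the same side of 0 in each.

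**Figure D1:**
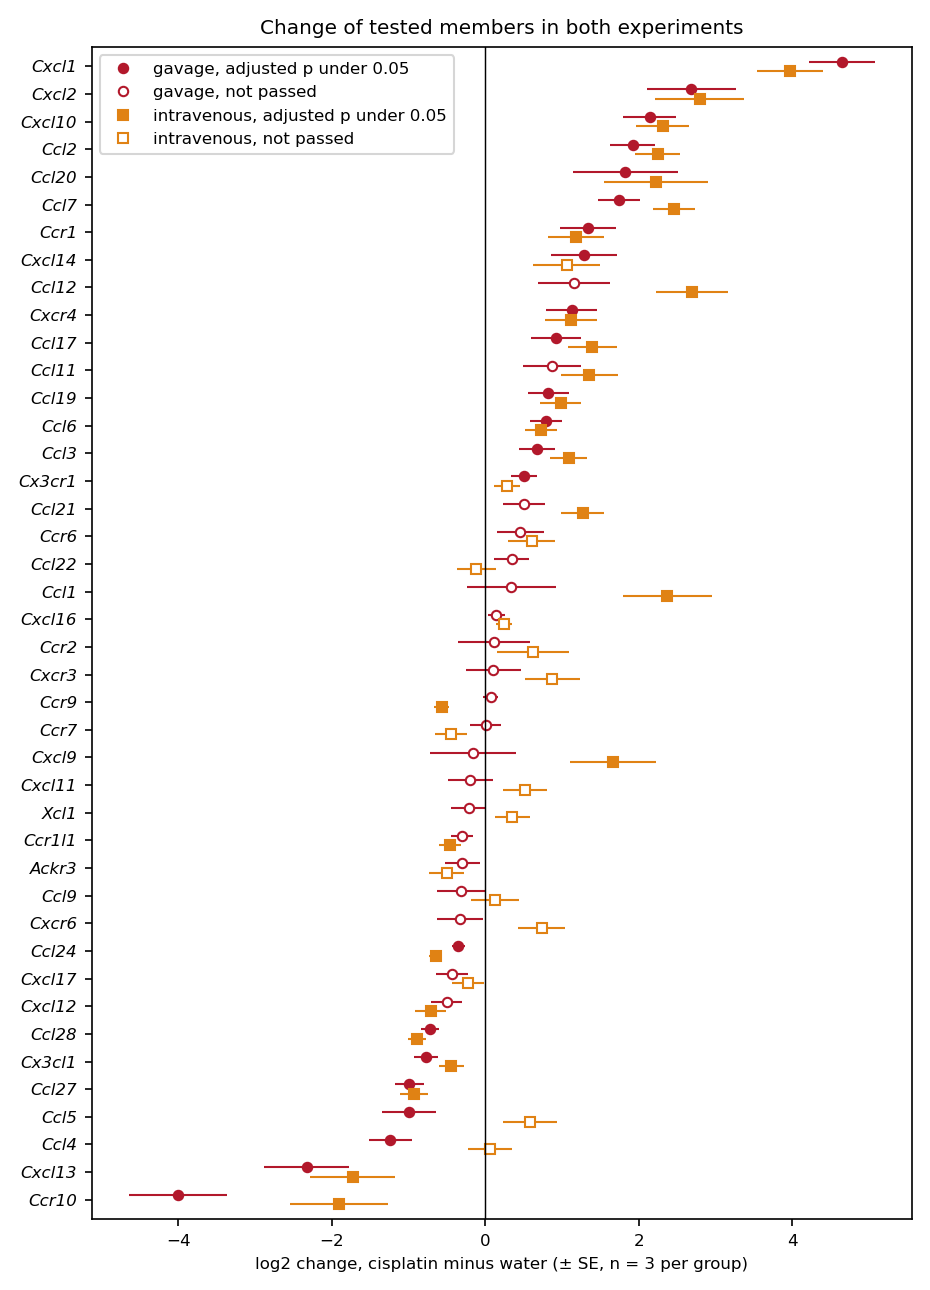
Change of 42 of the 43 tested members (log2, cisplatin minus water) with its SE in the gavage and intravenous experiments, 3 animals per group, ordered by the gavage change. Filled points passed an adjusted p under 0.05. Cxcl1 stands at the top (4.64 and 3.96) and Ccr10 at the bottom (-4.00 and -1.91).

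The neutrophil attractants Cxcl1 and Cxcl2 had the largest rises of the family in the gavage experiment. Both act in rodents through the receptor Cxcr2. Cxcl1 gave 0.29, -0.19 and 1.60 in gavage cisplatin arrays, against -4.17, -3.95 and -4.11 in gavage water arrays. In the intravenous experiment it gave -0.33, 0.37 and -0.65 with cisplatin, against -3.69, -4.16 and -4.65 with water. Every cisplatin array lay more than 3 log2 units above the water arrays of its experiment. The change was 4.64 ± 0.43 (25.0-fold, adjusted p = 1.24e-05) in gavage and 3.96 ± 0.43 (15.6-fold, adjusted p = 4.99e-05) in intravenous animals.

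Cxcl2 gave -3.37, -3.56 and -1.89 with gavage cisplatin, against -5.37, -5.46 and -6.04 with gavage water. It gave -3.58, -2.45 and -3.67 with intravenous cisplatin, against -5.19, -5.71 and -7.20 with intravenous water. The groups did not overlap in either experiment. In gavage water the probe was well above background on 0 arrays, so that the fold is a bound. It sets the cisplatin mean against a water mean in which each array enters with the probe's own value or, if greater, with that array's dimmest clearly detected signal. Cxcl2 was at least 6.17-fold higher with gavage cisplatin. The limma adjusted p of 0.00259 belongs to the fitted change from those water values and not to this bound. With intravenous cisplatin the change of Cxcl2 was 2.79 ± 0.58 (adjusted p = 0.0023), and 2.21 without intravenous water replicate 3. Only 1 of 3 intravenous water arrays was well above background, so the intravenous change and its p rest largely on values near background. Cxcl2 passed the filter through its cisplatin groups alone. A second Cxcl2 probe changed by 1.34 ± 1.21 in intravenous animals. Fitted with the slide as a block, the gavage call was lost (2.25, adjusted p = 0.054).

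The other genes of this axis were dim. Cxcl6, another neutrophil attractant, and the receptor Cxcr1 were well above background on 0 arrays, and Cxcr2 was so on 1 gavage cisplatin and 1 intravenous cisplatin array and on 0 water arrays. The 9 neutrophil marker genes on the array had a summed signal of 0.562 to 0.872 in gavage cisplatin and 0.659 to 1.31 in gavage water, and of 0.627 to 1.57 in intravenous cisplatin and 0.746 to 1.09 in intravenous water. Of 5 that were tested none passed in gavage (by limma, 0 of 5 also at an unadjusted p under 0.05), and Fcnb alone rose in intravenous animals (1.62 ± 0.64, adjusted p = 0.0489). S100a8 (-0.94 and -0.92), S100a9 (-1.04 and -1.03) and Camp (-0.20 and -0.38) had negative changes in both experiments and did not pass. Csf3r changed by -0.05 in gavage and 0.05 in intravenous animals. Of the 4 that were not tested, Elane, Ngp and Mmp8 were on no array well above background, and Ltf was so on 2 of 3 cisplatin arrays in each experiment and on 0 water arrays.

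**Figure D2:**
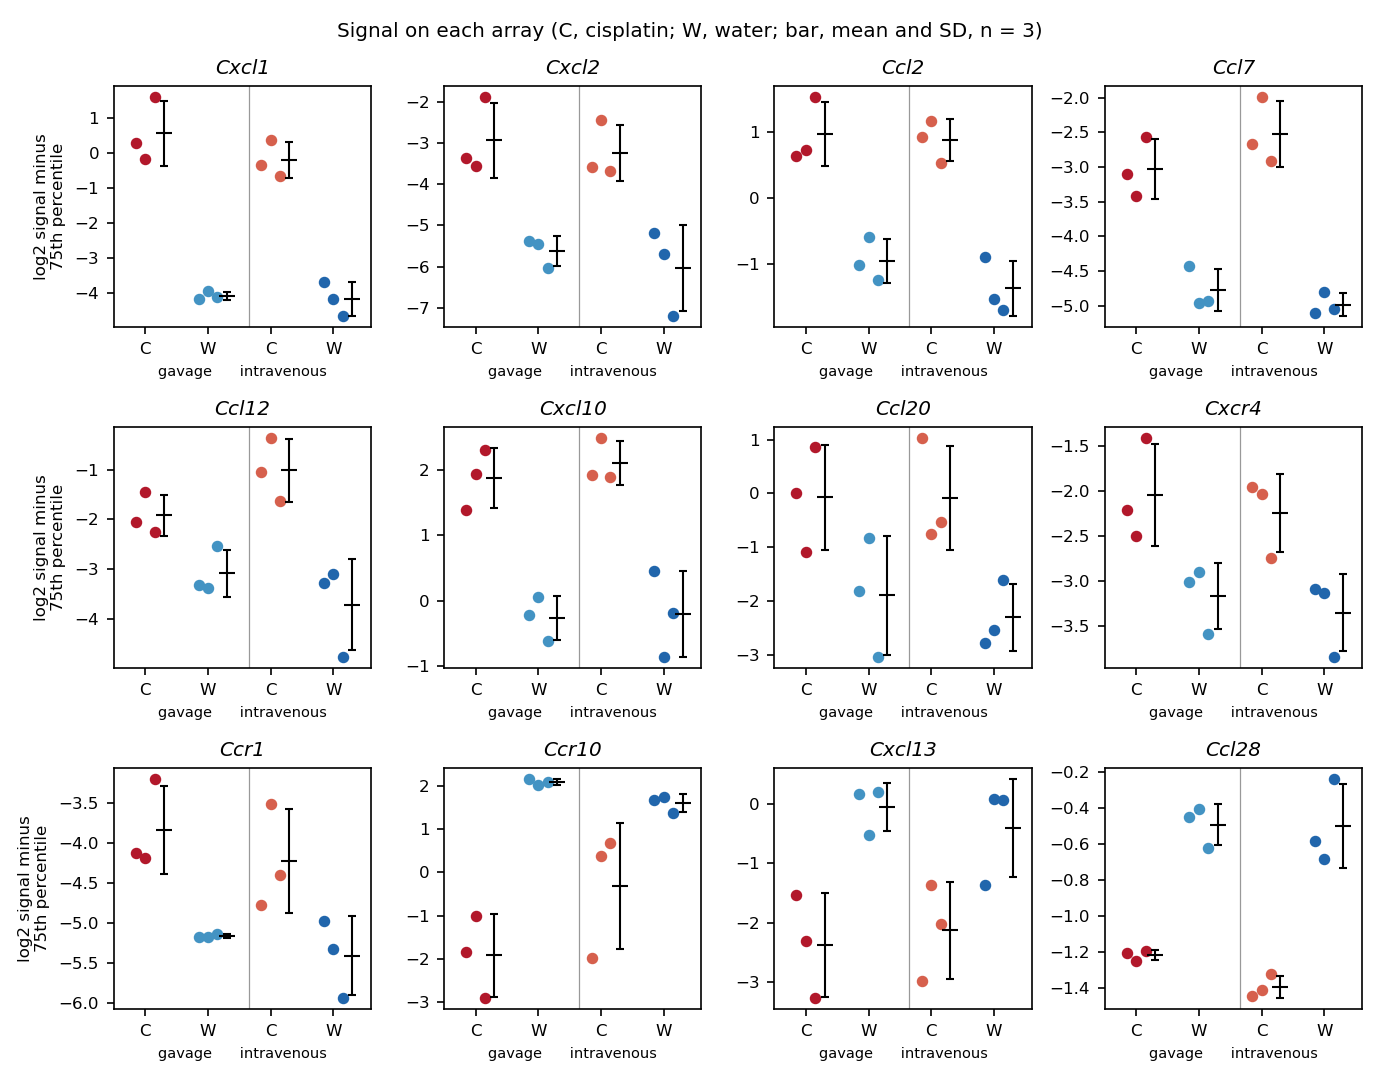
Signal of 12 members on each array (log2 over the array's 75th percentile), with cisplatin (C) left of water (W) in each experiment and the mean with its SD (n = 3) beside the points. Cxcl1, Cxcl2, Ccl2, Ccl7 and Cxcl10 lie apart in both experiments, upward with cisplatin, and Ccr10 and Ccl28 lie apart downward, while the intravenous groups of Cxcl13 meet.

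The monocyte attractants formed the second group of rises. Ccl2 and Ccl7 call monocytes through the receptor Ccr2, and Ccl12 does so in mice. Ccl2 gave 0.64, 0.73 and 1.53 with gavage cisplatin, against -1.01, -0.59 and -1.25 with gavage water, and 0.93, 1.17 and 0.54 with intravenous cisplatin, against -0.89, -1.52 and -1.69 with intravenous water. No cisplatin array overlapped a water array. The change was 1.92 ± 0.29 (3.78-fold, adjusted p = 0.000303) and 2.24 ± 0.29 (4.74-fold, adjusted p = 0.000149).

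Ccl7 gave -3.10, -3.42 and -2.56 with gavage cisplatin, against -4.43, -4.96 and -4.93 with gavage water, and -2.66, -1.99 and -2.92 with intravenous cisplatin, against -5.11, -4.80 and -5.05 with intravenous water. The groups were again separate, with changes of 1.74 ± 0.27 (adjusted p = 0.00034) and 2.46 ± 0.27 (adjusted p = 5.59e-05). Ccl12 gave -2.06, -1.45 and -2.25 with gavage cisplatin, against -3.32, -3.38 and -2.54 with gavage water, and -1.05, -0.37 and -1.63 with intravenous cisplatin, against -3.28, -3.09 and -4.76 with intravenous water. Its groups were separate in both experiments, yet only the intravenous change passed (2.70 ± 0.47, adjusted p = 0.000795), the gavage change being 1.16 ± 0.47 (adjusted p = 0.0539). The difference between these effects was 1.54 (adjusted p = 0.239). A second Ccl12 probe changed by 2.64 and 4.51. A second Ccl7 probe changed by 1.74 in gavage and was well above background on 3 intravenous cisplatin arrays and 0 intravenous water arrays.

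Ccr2 itself did not pass, with 0.12 ± 0.47 in gavage and 0.62 ± 0.47 in intravenous animals. A second Ccr2 probe was well above background on all 6 cisplatin arrays and on 0 water arrays. Without intravenous cisplatin replicate 1 the intravenous change of Ccr2 was 1.17 (adjusted p = 0.0273). The 14 marker genes of monocytes, macrophages and dendritic cells on the array had a summed signal of 192 to 257 in gavage cisplatin and 142 to 152 in gavage water, and of 200 to 243 in intravenous cisplatin and 123 to 225 in intravenous water. Of these, 11 rose and 1 fell in gavage, beside 29.5% and 30.2% of all features. In intravenous animals 6 rose, 0 fell and 8 did not pass, beside 26.1% of all features higher and 32.6% lower. Cd74 fell in gavage (-1.22 ± 0.37), and Adgre1 and Ly86 passed in neither experiment. Mrc1, the mannose receptor of macrophages, rose by 3.46 ± 0.37 and 2.64 ± 0.37, and Cd14 by 2.17 ± 0.25 and 2.13 ± 0.25. Cd163 was well above background on all 6 cisplatin arrays and on 0 water arrays. The part of these cells in the rise of the attractants was not tested.

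By the levels on the 12 arrays, the members most like Cxcl1 were Ccl2 (Pearson r = 0.976), Cxcl2 (0.961) and Cxcl10 (0.944). Those most like Ccl2 were Cxcl1, Cxcl2 (0.969) and Cxcl10 (0.964), and those most like Ccl7 were Cxcl1 (0.940), Ccl2 (0.938) and Ccl6 (0.933). These values describe the 12 arrays, which fall into cisplatin and water groups and share their scaling.

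Several of these genes carry kappa B sites, the DNA motif of NF-kappa B, close to their start. The 130 bases before the transcription start are shown for the 5 members that rose in both experiments and held a match. Risers without a match are not shown. Cxcl6, which was dim on all arrays and also held a match, is shown for comparison. The sequences are those of RefSeq for the GRCr8 assembly on the coding strand, with matches to the kappa B motif in capitals.
Cxcl1, chr14:17479322-17479451, minus strand: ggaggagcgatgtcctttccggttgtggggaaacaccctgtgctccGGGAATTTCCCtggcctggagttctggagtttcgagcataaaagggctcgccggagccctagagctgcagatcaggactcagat
Cxcl2, chr14:17467256-17467385, minus strand: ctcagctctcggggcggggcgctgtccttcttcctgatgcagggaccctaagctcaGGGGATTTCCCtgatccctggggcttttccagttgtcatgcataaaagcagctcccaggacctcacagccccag
Ccl7, chr10:67513965-67514094, plus strand: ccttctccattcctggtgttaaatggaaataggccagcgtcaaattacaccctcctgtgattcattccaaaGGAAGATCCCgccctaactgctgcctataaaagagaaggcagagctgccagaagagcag
Ccl20, chr9:91837029-91837158, plus strand: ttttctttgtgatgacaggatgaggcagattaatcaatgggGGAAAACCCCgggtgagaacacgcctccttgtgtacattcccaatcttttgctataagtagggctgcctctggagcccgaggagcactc
Cxcl10, chr14:15988936-15989065, plus strand: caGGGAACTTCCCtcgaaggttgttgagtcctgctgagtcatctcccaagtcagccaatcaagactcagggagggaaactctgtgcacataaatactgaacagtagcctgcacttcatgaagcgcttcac
Cxcl6, chr14:17596418-17596547, minus strand: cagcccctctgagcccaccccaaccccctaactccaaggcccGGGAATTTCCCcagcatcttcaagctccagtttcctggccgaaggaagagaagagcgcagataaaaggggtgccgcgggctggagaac

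The first match began 84 bases before the start in Cxcl1, 74 in Cxcl2, 59 in Ccl7, 89 in Ccl20, 128 in Cxcl10 and 88 in Cxcl6. Cxcl1 and Cxcl6 shared the same 11 letters, while Cxcl1 rose and Cxcl6 was not well above background. The search covered 250 bases before the start on both strands. A kappa B match was held by 9 of 42 members with a sequence, by 5 of 10 that rose in both experiments and by 0 of 5 that fell in both, against 6.33% of 33469 windows of all genes. Ccl9 and Cxcl11, which did not pass in either experiment, held a match too, as did the untested Cxcl6 and Ccr3. The AP-1 motif TGANTCA was held by 7 of 42 members, 2 of the 10 and 0 of the 5, against 6.34% of windows. The interferon-response motif, a pair of GAAA repeats with 2 bases between them, was held by 2 of 42 members, Ccl19 and Cxcl10, against 3.41%. Matches of different motifs overlapped in 0 member windows. A match describes the letters of the window and not the binding of a factor.

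The inflammatory attractants of macrophages and T cells around Ccl3 did not move together. Ccl3 gave -0.05, -0.68 and -1.07 with gavage cisplatin, against -1.28, -1.16 and -1.38 with gavage water, and -0.16, 0.33 and -0.25 with intravenous cisplatin, against -1.27, -1.08 and -0.98 with intravenous water. It rose by 0.67 ± 0.24 (adjusted p = 0.0324) and 1.09 ± 0.24 (adjusted p = 0.00312), with separate groups in both. The gavage call of Ccl3 ended without any 1 of 5 arrays, gavage cisplatin replicates 1 and 2 and gavage water replicates 1, 2 and 3, with values of 0.39 to 0.73. Ccl6, a Ccr1 ligand in mice, rose by 0.79 ± 0.21 (adjusted p = 0.00818) and 0.73 ± 0.21 (adjusted p = 0.0133). The intravenous call of Ccl6 ended without intravenous cisplatin replicate 2 (0.56) and its gavage call in the fit with slide blocks (0.81, adjusted p = 0.0593). Ccl9, another Ccr1 ligand in mice, changed by -0.32 ± 0.31 and 0.12 ± 0.31 and did not pass.

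Ccl4 went the other way in gavage animals. It gave -2.79, -2.85 and -3.57 with gavage cisplatin, against -1.76, -1.72 and -2.03 with gavage water, and -2.27, -1.14 and -1.73 with intravenous cisplatin, against -1.57, -1.78 and -1.98 with intravenous water. The gavage groups were separate and the intravenous groups overlapped. The change was -1.23 ± 0.28 (adjusted p = 0.00374) in gavage and 0.06 ± 0.28 (adjusted p = 0.869) in intravenous animals, and the difference between them was 1.29 (adjusted p = 0.131). Ccl5 changed by -0.99 ± 0.35 (adjusted p = 0.0322) in gavage and 0.58 ± 0.35 (adjusted p = 0.18) in intravenous animals, with a difference of 1.57 (adjusted p = 0.136). A second probe of each gene gave -1.23 and 0.048 for Ccl4 and -1.01 and 0.71 for Ccl5. With the slide as a block neither gavage fall passed (-0.95 and -0.71), nor with scaling to the spike-in probes (-0.55 and -0.31), and that of Ccl5 ended without gavage cisplatin replicate 2 (-1.04) or 3 (-0.80) or gavage water replicate 1 (-0.76).

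Ccr1, which binds Ccl3, Ccl5 and Ccl7 on monocytes and macrophages, gave -4.12, -4.18 and -3.20 with gavage cisplatin, against -5.18, -5.18 and -5.14 with gavage water. With intravenous cisplatin it gave -4.77, -3.51 and -4.40, against -4.97, -5.32 and -5.94 with intravenous water. The cisplatin arrays lay above the water arrays in both, by 1.33 ± 0.36 (adjusted p = 0.00942) and 1.18 ± 0.36 (adjusted p = 0.0178). The intravenous call of Ccr1 ended without intravenous cisplatin replicate 2 (0.82) or intravenous water replicate 3 (0.92), and its gavage call with the slide as a block (1.05). The Ccr1-like gene Ccr1l1 changed by -0.30 ± 0.14 in gavage (adjusted p = 0.093) and fell in intravenous animals (-0.46 ± 0.14, adjusted p = 0.0178), with a difference of -0.16 (adjusted p = 0.69). Its gavage fall passed in the fit with slide blocks (-0.62, adjusted p = 0.00805) and without gavage cisplatin replicate 2 (-0.41). Its intravenous call ended without intravenous cisplatin replicate 1 (-0.43) or intravenous water replicate 2 (-0.38). A second Ccr1l1 probe was well above background on 1 array alone, of gavage cisplatin.

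The eotaxins are ligands of Ccr3, the receptor of eosinophils, and the measured members moved in opposite directions relative to the 75th percentile. Ccl11 gave -2.70, -3.27 and -3.89 with gavage cisplatin, against -4.06, -4.20 and -4.21 with gavage water, and -3.11, -2.72 and -3.96 with intravenous cisplatin, against -5.07, -4.72 and -4.06 with intravenous water. The groups were separate in both, and the intravenous change passed (1.35 ± 0.37, adjusted p = 0.0105) while the gavage change did not (0.87 ± 0.37, adjusted p = 0.0671), with a difference of 0.48 (adjusted p = 0.645). The gavage change of Ccl11 passed in the fit with slide blocks (1.46, adjusted p = 0.0344) and without gavage cisplatin replicate 3 (1.17). Ccl24 averaged 4.13 ± 0.09 with gavage cisplatin and 4.48 ± 0.05 with gavage water, and 4.04 ± 0.08 with intravenous cisplatin and 4.69 ± 0.10 with intravenous water (SD, n = 3 each). It fell by 0.35 ± 0.09 (adjusted p = 0.00539) and by 0.65 ± 0.09 (adjusted p = 0.000167), and by 1.82 and 1.61 on a second, dimmer probe. With spike-in scaling Ccl24 rose in gavage instead (0.33, adjusted p = 0.0428) and did not pass in intravenous animals (-0.13). Ccr3 was well above background on 0 arrays and Ccl26 on 1 intravenous cisplatin array.

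Cxcl9, Cxcl10 and Cxcl11 are interferon-induced ligands of Cxcr3, the receptor of activated T and NK cells, and are neighbours in the genome. Cxcl10 gave 1.39, 1.94 and 2.31 with gavage cisplatin, against -0.22, 0.05 and -0.62 with gavage water, and 1.93, 2.50 and 1.89 with intravenous cisplatin, against 0.45, -0.87 and -0.20 with intravenous water. It rose in both with separate groups, by 2.14 ± 0.35 (4.41-fold, adjusted p = 0.00042) and 2.31 ± 0.35 (4.96-fold, adjusted p = 0.00033).

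Its neighbours followed a different pattern, with spread among the intravenous cisplatin arrays. Cxcl9 gave -3.45, -2.81 and -4.53 with gavage cisplatin, against -3.28, -3.57 and -3.47 with gavage water, and -3.41, -1.33 and -1.61 with intravenous cisplatin, against -3.98, -4.17 and -3.21 with intravenous water. The groups overlapped in both experiments. The change was -0.16 ± 0.56 (adjusted p = 0.822) and 1.66 ± 0.56 (adjusted p = 0.0257), with a difference of 1.82 (adjusted p = 0.24). The intravenous call of Cxcl9 ended without intravenous cisplatin replicate 2 (1.27) or 3 (1.41) or intravenous water replicate 1 (1.57) or 2 (1.47), and the change was 2.31 without intravenous cisplatin replicate 1. Cxcl11 changed by -0.20 ± 0.29 and 0.52 ± 0.29 and Cxcr3 by 0.10 ± 0.36 and 0.87 ± 0.36 (adjusted p = 0.0585), and neither passed.

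Intravenous cisplatin replicate 1 stood apart from replicates 2 and 3 in some members directed at lymphocytes. It did so too in Ccr2 (-5.61, against -3.69 and -4.27) and Ccl9 (-4.19, against -2.83 and -3.38), members of monocytes and macrophages. Others did not show this, such as Ccl19 (2.18, against 2.41 and 2.38), and Ccl20 was highest in this animal. The summed proximal tubule signal of this animal was also the lowest of its group (274, against 761 and 974). The members in the plot of 6 genes by array were chosen after their values were seen. In this animal Cxcr3 gave -2.86, against -1.39 and -1.36 in the other intravenous cisplatin animals and -2.61, -2.95 and -2.67 in intravenous water. Cxcl11 gave -0.77 there, against 0.56 and 0.35 in the other intravenous cisplatin animals and -0.61, -0.30 and -0.51 in intravenous water. Ccl5 gave 1.25, 2.39 and 2.48 in the 3 intravenous cisplatin animals, and 1.03, 1.55 and 1.80 in intravenous water. For Cxcr3, Cxcl11 and Ccl5, replicate 1 lay within or below the range of the water arrays, and replicates 2 and 3 above it.

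The 15 marker genes of T and NK cells had a summed signal of 3.28 in this animal, 7.29 and 6.99 in intravenous cisplatin replicates 2 and 3, and 2.78 to 3.87 in intravenous water. In the gavage experiment it was 3.10 to 3.54 with cisplatin and 2.99 to 4.29 with water. Of 14 tested, 1 rose in gavage and 6 rose in intravenous animals, beside 29.5% and 26.1% of all features. The part of these cells in the changes of these chemokines was not tested. Without intravenous cisplatin replicate 1 the difference between experiments passed for 8 members, against 0 with it. The share of all features that passed in that fit is not given here, so the count has nothing to be set against. Ccl4 (1.57), Ccl5 (1.97), Ccr10 (2.93), Cxcl9 (2.47), Cxcl11 (1.12), Cxcr3 (1.27) and Cxcr6 (1.40) were then higher in the intravenous effect and Ccr9 (-0.59) lower. The intravenous changes of Ccl5 (0.97), Cxcl11 (0.93), Cxcr3 (1.37) and Cxcr6 (1.07) also passed without that animal. That animal had been seen to be the lowest of its group for these genes. Leaving it out raised their intravenous change by construction, so these calls are not a separate test. The same holds for the differences that were then higher, and for the intravenous changes of Ccr2, Ccr6 and Cxcl16 without it. In the same fit the intravenous calls of Ccl20 (1.67), Ccr10 (-1.07), Ccr1l1 (-0.43), Cx3cl1 (-0.42), Cxcl13 (-1.29) and Cxcr4 (0.97) ended.

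**Figure D3:**
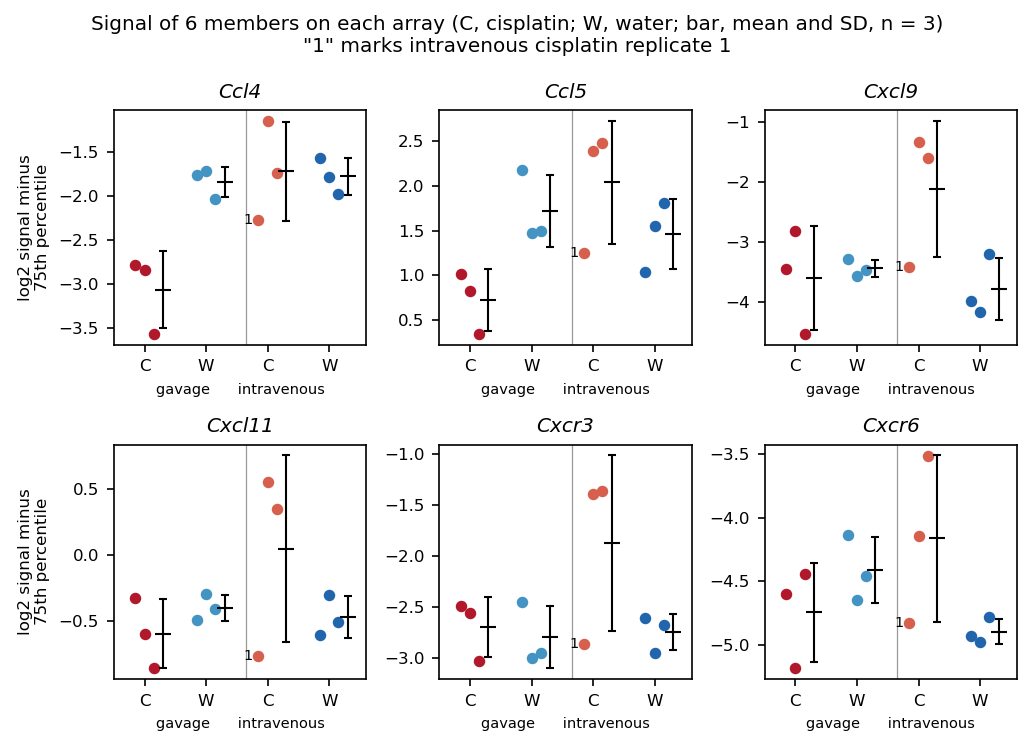
Signal of Ccl4, Ccl5, Cxcl9, Cxcl11, Cxcr3 and Cxcr6 on each array (log2 over the array's 75th percentile), with cisplatin (C) left of water (W), the mean and SD (n = 3), and intravenous cisplatin replicate 1 marked. That animal is the lowest of its group for all 6 genes, for example -2.86 for Cxcr3 beside -1.39 and -1.36.

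Among the ligands of helper T cells and mucosal surfaces, Ccl20 and Ccl17 rose in both experiments. Ccl20, the ligand of Ccr6, gave 0.0035, -1.08 and 0.86 with gavage cisplatin, against -1.81, -0.84 and -3.04 with gavage water, and 1.03, -0.75 and -0.53 with intravenous cisplatin, against -2.78, -2.53 and -1.60 with intravenous water. Its gavage groups overlapped and its intravenous groups did not, with changes of 1.83 ± 0.68 (adjusted p = 0.0401) and 2.23 ± 0.68 (adjusted p = 0.0175). The gavage call of Ccl20 ended without gavage cisplatin replicate 1 or 3, gavage water replicate 1 or 3 or intravenous water replicate 2 (1.25 to 1.87) and in the fit with slide blocks (1.90). Its intravenous call ended without intravenous cisplatin replicate 1 (1.67) or intravenous water replicate 1 (1.99) or 2 (2.11). Ccr6 changed by 0.46 ± 0.31 and 0.60 ± 0.31 and did not pass, although without intravenous cisplatin replicate 1 the second value was 0.88 (adjusted p = 0.0333).

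Ccl17, a ligand of the helper T-cell receptor Ccr4, gave -2.54, -2.49 and -2.30 with gavage cisplatin, against -3.23, -3.73 and -3.13 with gavage water, and -2.88, -1.45 and -2.70 with intravenous cisplatin, against -3.97, -3.64 and -3.62 with intravenous water. The groups were separate, with changes of 0.92 ± 0.32 (adjusted p = 0.0316) and 1.40 ± 0.32 (adjusted p = 0.00425). The gavage call of Ccl17 ended without any 1 of 5 arrays, gavage cisplatin replicates 1, 2 and 3 and gavage water replicates 1 and 2 (0.73 to 0.99), and in the fit with slide blocks (0.82). Ccl22, the other Ccr4 ligand, changed by 0.34 ± 0.23 and -0.11 ± 0.26, the second from 2 cisplatin arrays since 1 uneven spot was left out, and Ccr4 was on no array well above background. Ccl1, the ligand of Ccr8, gave -5.37, -3.66 and -4.68 with intravenous cisplatin, against -6.99, -7.88 and -5.97 with intravenous water, where it was well above background on 0 arrays. These groups were separate, and Ccl1 was at least 1.98-fold higher with intravenous cisplatin, the only group through which it passed the filter. The limma adjusted p of 0.00568 belongs to the fitted change from those water values and not to this bound. In gavage Ccl1 gave -6.95, -5.21 and -5.86 with cisplatin, against -6.35, -6.03 and -6.66 with water, and did not pass (adjusted p = 0.637).

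Ccr10 and its ligands fell. Ccl27 and Ccl28 are made by epithelia and attract lymphocytes through Ccr10. Ccr10 gave -1.84, -1.002 and -2.91 with gavage cisplatin, against 2.15, 2.02 and 2.08 with gavage water, and -1.99, 0.37 and 0.68 with intravenous cisplatin, against 1.68, 1.75 and 1.36 with intravenous water. All 6 cisplatin arrays lay below all 6 water arrays. The change was -4.00 ± 0.64 (16.0-fold lower, adjusted p = 0.000397) in gavage and -1.91 ± 0.64 (3.75-fold lower, adjusted p = 0.0262) in intravenous animals, and -4.00 and -1.59 on a second probe. Its intravenous call ended without intravenous cisplatin replicate 1 (-1.07) or intravenous water replicate 1 (-1.87) or 2 (-1.83), and with spike-in scaling (-1.39).

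Ccl28 averaged -1.22 ± 0.03 with gavage cisplatin and -0.50 ± 0.11 with gavage water, and -1.39 ± 0.06 with intravenous cisplatin and -0.50 ± 0.23 with intravenous water (SD, n = 3 each). It fell by 0.72 ± 0.11 (adjusted p = 0.000381) and by 0.89 ± 0.11 (adjusted p = 0.000134), and Ccl27 by 0.99 ± 0.18 (adjusted p = 0.00105) and by 0.93 ± 0.18 (adjusted p = 0.00175). The marker genes of the distal nephron, whose epithelium is one of several in the cortex, had summed signals of 131 to 224 in gavage cisplatin and 599 to 649 in gavage water, and of 102 to 170 in intravenous cisplatin and 592 to 690 in intravenous water. Their part and that of the proximal tubule in these falls was not tested. Ccr9, a receptor of gut-homing T cells, changed by 0.07 ± 0.10 in gavage and fell by 0.57 ± 0.10 in intravenous animals (adjusted p = 0.000723), with a difference of -0.64 (adjusted p = 0.0541), the smallest adjusted p of a difference among the members. That difference was -0.67 and passed without gavage cisplatin replicate 1. A second Ccr9 probe was well above background on 0 arrays, so the values of Ccr9 rest on 1 probe. Ccl25, the ligand of Ccr9, was well above background on 0 arrays.

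The ligands of lymphoid tissue also parted. Ccl19 and Ccl21 guide T cells and dendritic cells through Ccr7. Ccl19 rose by 0.82 ± 0.27 (adjusted p = 0.0218) and 0.98 ± 0.27 (adjusted p = 0.00979), and its gavage call ended without gavage cisplatin replicate 2 (0.51), without gavage water replicate 1 (0.77) or 2 (0.79) and with the slide as a block (0.76). Ccl21 gave 0.82, 0.39 and 0.84 with gavage cisplatin, against -0.23, 0.22 and 0.56 with gavage water, and 0.99, 1.95 and 1.82 with intravenous cisplatin, against 0.55, 0.36 and 0.05 with intravenous water. Its groups overlapped in gavage (0.50 ± 0.28, adjusted p = 0.142) and were separate in intravenous animals (1.27 ± 0.28, adjusted p = 0.003). Ccr7 did not pass (0.0059 ± 0.21 and -0.45 ± 0.21).

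Cxcl13, which places B cells in follicles, gave -1.53, -2.32 and -3.28 with gavage cisplatin, against 0.17, -0.52 and 0.20 with gavage water, and -2.99, -1.37 and -2.03 with intravenous cisplatin, against -1.37, 0.08 and 0.07 with intravenous water. The gavage groups lay apart, and in the intravenous experiment the highest cisplatin array lay at about the level of the lowest water array. The change was -2.32 ± 0.55 (5.0-fold lower, adjusted p = 0.0045) and -1.73 ± 0.55 (3.31-fold lower, adjusted p = 0.0214). The gavage call of Cxcl13 was lost in the fit with slide blocks (-1.48, adjusted p = 0.123), and its intravenous call without intravenous cisplatin replicate 1 (-1.29), without intravenous water replicate 2 (-1.48) or 3 (-1.49) and with spike-in scaling (-1.21). Its receptor Cxcr5 was on no array well above background, and 5 marker genes of B and plasma cells had summed signals of 0.649 to 0.851 in gavage cisplatin and 1.80 to 1.97 in gavage water, and of 0.723 to 1.15 in intravenous cisplatin and 1.93 to 2.27 in intravenous water.

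Cxcl12 and its receptor Cxcr4 moved in opposite directions. Cxcl12, a homeostatic ligand of stroma and vessels, averaged 3.24 ± 0.33 with gavage cisplatin and 3.74 ± 0.18 with gavage water, and 3.23 ± 0.27 with intravenous cisplatin and 3.94 ± 0.25 with intravenous water (SD, n = 3 each). It fell in intravenous animals (-0.71 ± 0.20, adjusted p = 0.012) and missed the threshold in gavage (-0.50 ± 0.20, adjusted p = 0.0528). Cxcr4 gave -2.22, -2.51 and -1.41 with gavage cisplatin, against -3.01, -2.90 and -3.59 with gavage water, and -1.96, -2.03 and -2.74 with intravenous cisplatin, against -3.09, -3.13 and -3.85 with intravenous water. Its groups were separate in both, with 1.12 ± 0.34 (adjusted p = 0.015) and 1.11 ± 0.34 (adjusted p = 0.0164). The gavage call of Cxcr4 ended without gavage cisplatin replicate 3 (0.81) or gavage water replicate 3 (0.91) and with the slide as a block (0.95), and the intravenous call without intravenous cisplatin replicate 1 (0.97) or 2 (1.01) or intravenous water replicate 3 (0.87). Ackr3, which takes Cxcl12 out of the tissue fluid, changed by -0.30 ± 0.23 and -0.50 ± 0.23 and did not pass.

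Of the membrane-bound ligands, Cx3cl1 fell and Cxcl16 did not pass in either experiment. Cx3cl1, known as fractalkine, averaged 4.62 ± 0.19 with gavage cisplatin and 5.39 ± 0.18 with gavage water, and 4.76 ± 0.06 with intravenous cisplatin and 5.21 ± 0.31 with intravenous water (SD, n = 3 each), with changes of -0.77 ± 0.16 (adjusted p = 0.00217) and -0.44 ± 0.16 (adjusted p = 0.0374). The intravenous call of Cx3cl1 ended without any 1 of 5 arrays, intravenous cisplatin replicates 1, 2 and 3 and intravenous water replicates 1 and 2 (-0.48 to -0.29). Its receptor Cx3cr1, of monocytes and macrophages, rose in gavage (0.51 ± 0.17, adjusted p = 0.0249) and did not pass in intravenous animals (0.28 ± 0.17, adjusted p = 0.181). The gavage call of Cx3cr1 ended without gavage cisplatin replicate 1 (0.39) or 2 (0.49) or gavage water replicate 1 (0.36), and a second Cx3cr1 probe changed by -0.029 in gavage and 0.89 in intravenous animals. Cxcl16 was bright, at 4.58 ± 0.19 with gavage cisplatin and 4.44 ± 0.04 with gavage water, and 4.54 ± 0.14 with intravenous cisplatin and 4.29 ± 0.06 with intravenous water (SD, n = 3 each). Its change was 0.14 in gavage (95% interval -0.10 to 0.38, overlapping groups) and 0.24 in intravenous animals (0.0004 to 0.49, adjusted p = 0.0785, separate groups), and 0.32 without intravenous cisplatin replicate 1 (adjusted p = 0.0372). With spike-in scaling Cxcl16 rose in both (0.82 and 0.76). Its receptor Cxcr6 changed by -0.33 ± 0.30 and 0.73 ± 0.30 (adjusted p = 0.0584).

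Cxcl14, an epithelial chemokine, gave 1.67, 1.77 and 2.42 with gavage cisplatin, against 1.20, 0.94 and -0.14 with gavage water, and 2.23, 0.83 and 0.98 with intravenous cisplatin, against 0.69, 0.21 and -0.04 with intravenous water. The groups were separate in both, and only the gavage change passed (1.29 ± 0.43, adjusted p = 0.0261, against 1.06 ± 0.43, adjusted p = 0.0575). That call of Cxcl14 ended without gavage cisplatin replicate 3 (1.05) or gavage water replicate 3 (0.88) and with the slide as a block (1.00). A second Cxcl14 probe, well above background on all 12 arrays, changed by 1.54 ± 0.32 in gavage and 1.48 ± 0.32 in intravenous animals. Cxcl17 (-0.43 ± 0.21 and -0.23 ± 0.21) and Xcl1 (-0.22 ± 0.23 and 0.35 ± 0.23) did not pass, a second Cxcl17 probe having the other sign (0.60 and 0.72). Xcr1, the receptor of Xcl1, and the decoy receptor Ackr2 were well above background on 0 arrays.

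**Figure D4:**
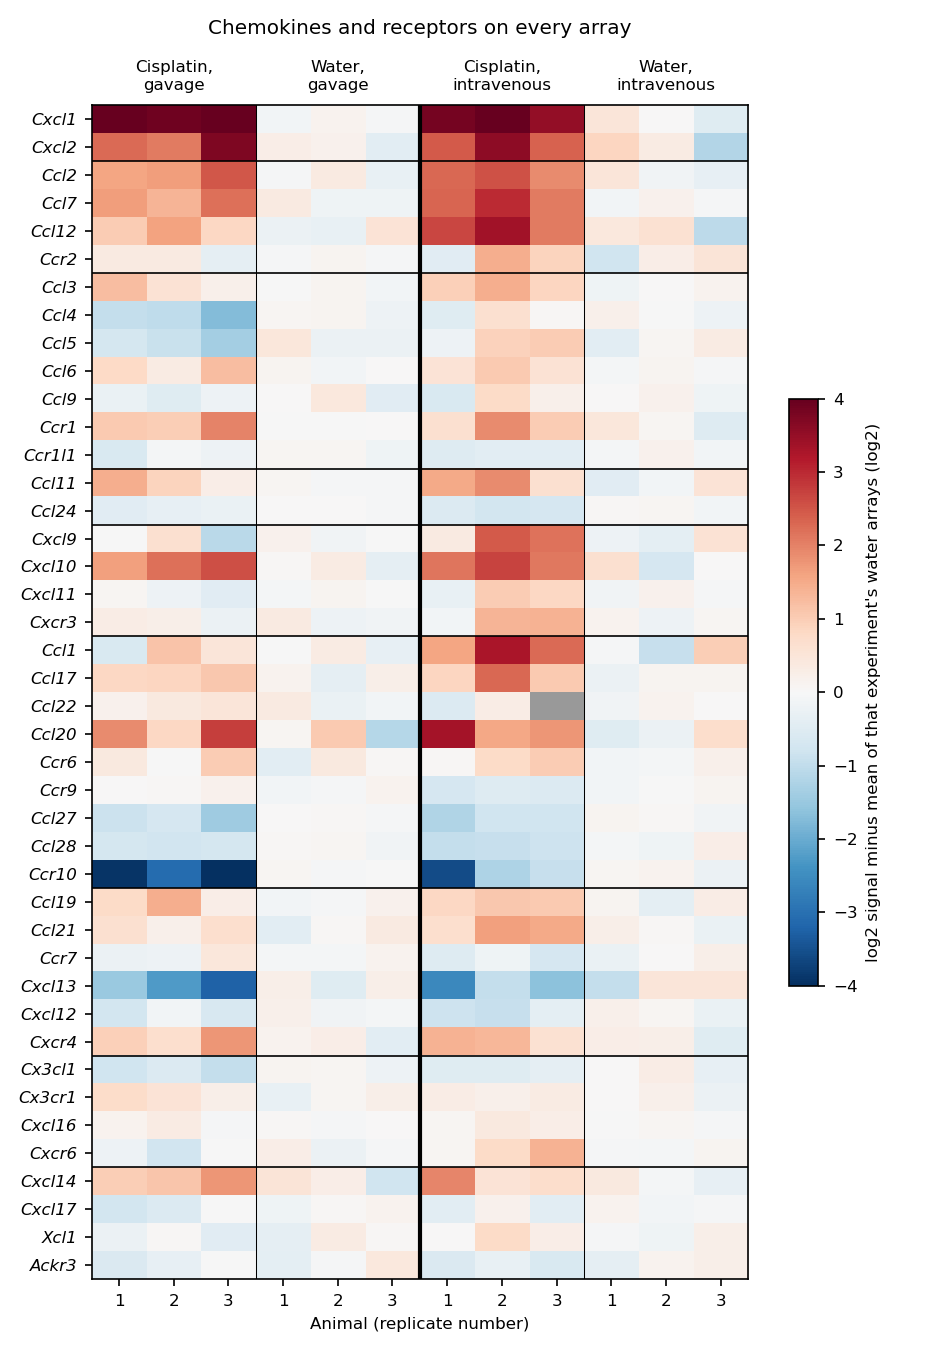
Signal of 42 of the 43 tested members on all 12 arrays, as the difference from the mean of the same experiment's water arrays (log2, red above and blue below, limited to 4 either way), with cisplatin left of water in each experiment, rows grouped by role and 1 left-out spot of Ccl22 in grey. The rows of Cxcl1, Cxcl2, Ccl2, Ccl7 and Cxcl10 are red on all 6 cisplatin arrays and that of Ccr10 is blue.

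Most chemokine genes lie in clusters, and their order along the chromosomes was set beside the changes. In the chromosome 10 run of Ccl2, Ccl7, Ccl11, Ccl12 and Ccl1, all 5 rose in intravenous animals and 2 in gavage. The size of the Ccl1 rise is known only as a bound. In the other run of that chromosome, Ccl5 and Ccl4 at the ends fell in gavage while Ccl6 and Ccl3 between them rose. On chromosome 14, Cxcl10 rose in both experiments between Cxcl11 and Cxcl9, and Cxcl2 and Cxcl1 rose beside the dim Cxcl6. On chromosome 19, Ccl17 rose in both and its neighbour Cx3cl1 fell, and on chromosome 5, Ccl27 fell beside Ccl19 and Ccl21.

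**Figure D5:**
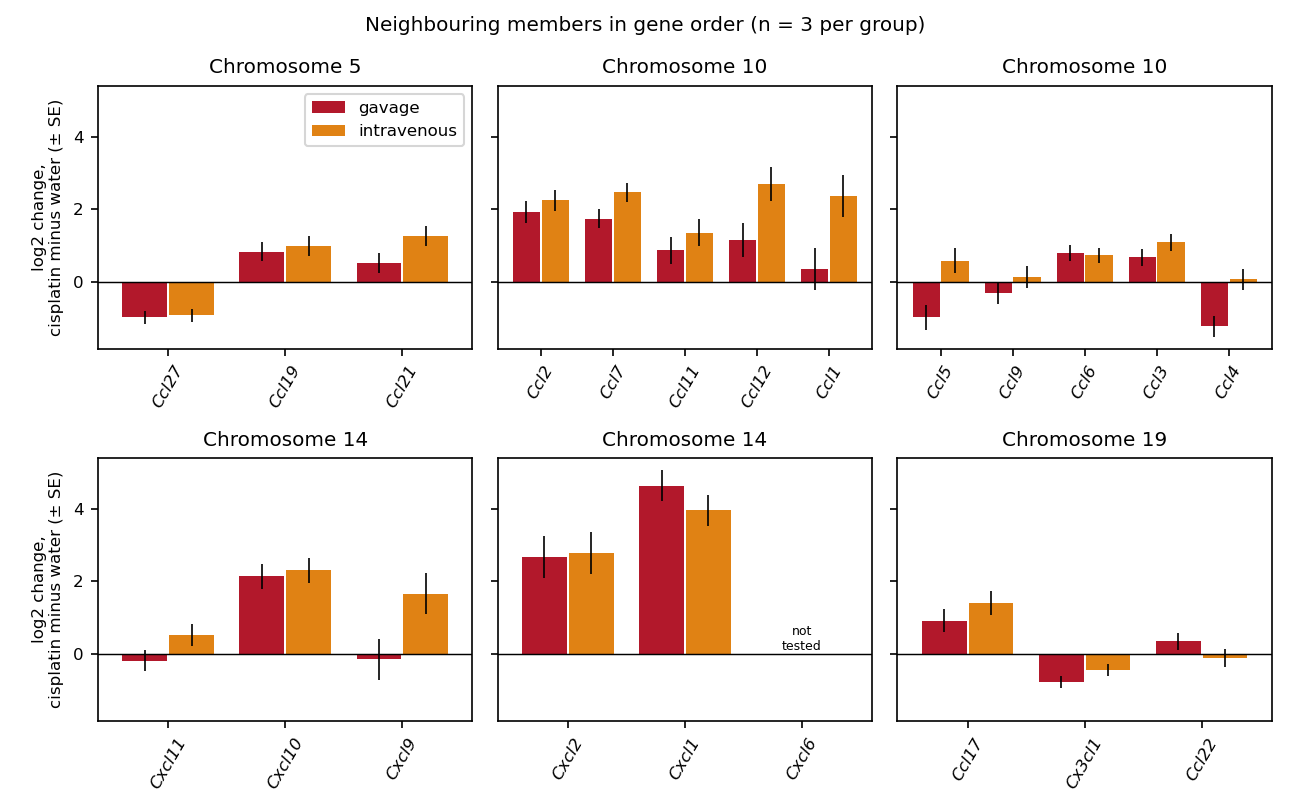
Change of neighbouring members (log2, cisplatin minus water, bars with SE, 3 animals per group) in gene order for runs of ligand genes with at least 2 tested members, in the gavage and intravenous experiments. Untested genes are marked. The bars of the Ccl2 run all lie above 0 (0.34 to 2.70), but the gavage changes of Ccl11, Ccl12 and Ccl1 did not pass. The runs of Ccl5, of Ccl17 and of Ccl27 hold changes of both signs.

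Most falls depended on the scaling. Scaling to the spike-in control probes, which sets each array by added RNA and not by its own 75th percentile, raised all features by 0.68 in gavage and 0.52 in intravenous animals. With it 23 members rose and 2 fell in gavage, Ccr10 (-3.32) and Cxcl13 (-1.64), and 26 rose and 0 fell in intravenous animals. All members that rose by the 75th percentile also rose with it. Over all features the share of calls that were higher was then 87.0% and 83.3%. The gavage change of Ccl24 was 0.33, a call in the other direction, and the intravenous changes of Cx3cl1 and Ccr1l1 were 0.075 and 0.058, so that these 3 turned in sign. The falls above are therefore falls relative to the 75th percentile of the array.

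Other settings ended single calls, mostly of dim or weakly changed members. With normexp background correction, which draws low signals together, the gavage call of Ccl17 (0.46), both calls of Ccr1 (0.45 and 0.29) and the intravenous calls of Ccl1 (0.31), Ccl11 (0.53) and Cxcl9 (0.93) were lost. With quantile normalization the gavage calls of Ccl24 (-0.12) and Ccl3 (0.61) and the intravenous call of Cx3cl1 (-0.22) were lost. With the mean of all probes of a gene the gavage call of Cx3cr1 (0.24) and the intravenous calls of Cxcl2 (2.07, adjusted p = 0.0553), Ccl11 (1.71), Ccr9 (-0.30) and Cx3cl1 (-0.34) were lost, while Ccl12 passed in gavage (1.90, adjusted p = 0.0109) and Cxcl14 (1.27) and Cx3cr1 (0.59) passed in intravenous animals. Fits of 6 arrays alone left the changes as they were and lost the gavage calls of Ccl19, Ccl20, Ccl3 and Cx3cr1 and the intravenous calls of Ccr10, Cx3cl1 and Cxcl9. Without a filter on dim probes Ccl20 in gavage (adjusted p = 0.0571) and Cx3cl1 in intravenous animals (adjusted p = 0.0589) no longer passed. Leaving out 1 array of the same experiment also let single members pass, in gavage Ccl12 (1.43), Cxcl12 (-0.69) and Cxcl17 (-0.64), and in intravenous animals Ackr3 (-0.68), Ccr7 (-0.59) and Cxcl14 (1.32).

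The machinery around the chemokines was described by 4 further lists, whose counts stand beside 29.5% of all features higher and 30.2% lower in gavage and 26.1% higher and 32.6% lower in intravenous animals. Of 22 tested genes of signalling behind the receptors, 12 rose and 1 fell in gavage and 14 rose and 2 fell in intravenous animals, with medians of 0.60 and 0.68. The G protein subunits Gnb1 (1.46 ± 0.11 and 0.91 ± 0.11) and Gnai2 (0.95 ± 0.11 and 0.83 ± 0.11) and the receptor kinase Grk5 (0.48 ± 0.08 and 0.74 ± 0.08) rose, and the arrestin Arrb1, which ends receptor signalling, fell (-0.65 ± 0.14 and -1.18 ± 0.14).

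Of 18 tested inducers and brakes of chemokine transcription, 9 rose and 2 fell in gavage and 8 rose and 2 fell in intravenous animals. The TNF receptors Tnfrsf1a (1.70 ± 0.08 and 1.45 ± 0.08) and Tnfrsf1b (1.62 ± 0.19 and 1.63 ± 0.19), the NF-kappa B subunit Nfkb2 (0.76 ± 0.11 and 0.79 ± 0.11) and the interferon-activated factor Irf1 (1.68 ± 0.26 and 1.65 ± 0.26) rose in both. Of 18 genes that trim, shed or present chemokines, 7 rose and 4 fell in gavage and 8 rose and 4 fell in intravenous animals. The proteases Mmp2 (3.39 ± 0.30 and 3.03 ± 0.30) and Mmp14 (2.39 ± 0.21 and 1.82 ± 0.21) rose, and the heparan sulfate carriers Sdc1 (1.91 ± 0.20 and 1.54 ± 0.20) and Sdc2 (-1.40 ± 0.13 and -1.65 ± 0.13) went opposite ways.

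Of 7 related genes outside the naming rule, 2 rose and 2 fell in gavage and 2 rose and 1 fell in intravenous animals. Pf4, a platelet CXC chemokine, rose (1.41 ± 0.29 and 1.01 ± 0.29), as did Cmtm3 (1.84 ± 0.14 and 1.67 ± 0.14), while Mif, a cytokine that also binds chemokine receptors, fell (-1.31 ± 0.12 and -0.89 ± 0.12). Cmtm6 fell in gavage (-0.30 ± 0.10) and changed by 0.17 ± 0.10 in intravenous animals.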

How the data were processed

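Total RNA of rat renal cortex was measured on 12 one-colour arrays. Per the submitters' processing notes, the authors read the spots with Agilent Feature Extraction 10.7, and the file headers give 10.7.1.1. The deposited processed intensity has its background taken off array by array and carries no normalization across arrays, per the file headers. The deposited marks for uneven spots, saturated spots and spots well above background were used too. The authors' deposited value table holds a linear ratio, the intensity of each probe over the 75th percentile of its array, as its match to the scanner values shows. The intravenous dose is that of each sample's label, since the treatment protocol shared by all samples names 3.75 mg/kg/day.

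The log2 processed intensity was taken minus the array's 75th percentile (969.7 to 1532), without 1439 control spots and 82 uneven spots. Accessions were named through RefSeq symbols of GRCr8. Of 61537 probes, 28206 had 1 symbol, 0 several and 33331 none. The probe with the highest mean over 12 arrays stood for a gene. Between 66.1% and 73.9% of the probes of an array were well above background and 0 were saturated, and the number of arrays limits the precision. Arrays of 1 group correlated at r = 0.981 to 0.993.

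In limma 3.58.1 (R 4.3.3), the means of the 4 groups were fitted jointly to all 12 arrays, two-sided, with 8 residual and 2.09 prior degrees of freedom. The contrasts were cisplatin minus water in each experiment and the intravenous minus the gavage effect. The fit was tested on simulated data. The arrays lay on 3 slides, each scanned at 1 time. Gavage cisplatin replicate 1 shared slide 1 with gavage water, its replicates 2 and 3 shared slide 2 with intravenous water, and intravenous cisplatin had slide 3 to itself. Intravenous cisplatin and its slide therefore cannot be told apart in any of the fits. The fit with the slide as a fixed block bears on the gavage calls only.

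Alternatives were normexp (on the median signal, since no mean signal column was used here), quantile and spike-in scaling, the deposited ratios, other filters and probe choices, blocks, 6 arrays alone and leaving out each array. Tested members are named, except 1 that is not reported here, with every array's value where a called change was at least 1 (log2), and 4 genes of each further list by smallest p. The members and lists were chosen with earlier results of these data known.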

Additional observations from a re-analysis of the deposited data

Results flagged for a closer look

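Cxcr2, the neutrophil receptor of Cxcl1 and Cxcl2, was left out of the test, yet its probe was well above background on 2 cisplatin arrays, 1 in each experiment, and on 0 water arrays. Ccl26, an eotaxin also left out, was so on 1 cisplatin array, an intravenous one, and on 0 water arrays. Groups of 3 are too small for the check on single outlying animals.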

How the results depend on the processing

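With the slide as a fixed block, where gavage rests on slide 1 and its lone cisplatin array is assumed to vary like the other groups, 13 members were called in gavage, 7 of them higher, and intravenous and difference values could not be had. Spike-in scaling gave 23 higher and 2 lower in gavage and 26 higher and 0 lower in intravenous animals, with Ccl24 at 0.33 in gavage and Ccr1l1 at 0.058 and Cx3cl1 at 0.075 in intravenous animals turned in sign. With normexp, 38.9% and 37.4% of all calls were higher, against 49.4% and 44.5% with the deposited ratios. The difference between experiments was called for 1 member, Ccr9 (lower), with a filter on all 12 arrays and with the slide as a random block, against 0. Leaving out each array gave 16 to 25 members called in gavage (9 to 16 higher, 7 to 9 lower), 20 to 28 in intravenous animals (14 to 22 higher, 5 to 10 lower) and 0 to 8 for the difference (0 to 7 higher, 0 to 1 lower). The shares of all features called in these fits are not given here. The 9 higher in gavage came without gavage water replicate 1, and 5 lower in intravenous animals without intravenous cisplatin replicate 1 or intravenous water replicate 2. The causes were not tested. Same-numbered animals did not deviate together (correlations -0.083 to 0.063 in gavage and -0.11 to -0.00098 in intravenous animals), so the numbers pair no samples. With the replicate block, 21 members were called in gavage (14 higher, 7 lower), 27 in intravenous animals (17 higher, 10 lower) and 0 for the difference. Dim members such as Cxcl2 and Ccl1 are limited by signal over background.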
